A study of Mus musculus with 20 samples.

Results

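The 8 genes described here encode nuclear receptors that bind steroids or are built like those that do: the estrogen receptors α and β (Esr1, Esr2), the progesterone receptor (Pgr), the glucocorticoid receptor (Nr3c1), the mineralocorticoid receptor (Nr3c2), and the estrogen-related receptors α, β and γ (Esrra, Esrrb, Esrrg). They were chosen by symbol, with earlier results of these data known, and are 8 of the 18193 genes with a probe set that the platform annotation pairs with exactly 1 symbol. All such probe sets were used, 22 in all, with no filter on level: 3 for Esr1, 1 for Esr2, 3 for Pgr, 6 for Nr3c1, 1 for Nr3c2, 2 for Esrra, 3 for Esrrb and 3 for Esrrg. No further probe set lists one of these genes beside another symbol.

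Total RNA of heart ventricle from female C57BL/6 mice was measured on 20 Affymetrix mouse arrays, 5 in each of 4 groups, in a series concerned with estrogen receptor α and glucose uptake. Every group, placebo included, was ovariectomized at 8 weeks of age and carried a minipump for 4 weeks. The groups were 16α-LE2, which the labels call an agonist of receptor α, 17β-estradiol, the natural agonist of both estrogen receptors, a beta-titled group, and placebo. The beta-titled samples have the word beta in their titles but control solution as their treatment, so they were treated neither as an agonist group nor as more placebo. No label states a dose, so 16α-LE2 and estradiol share a duration but no known common amount. Nothing in the labels ties a sample to 1 animal or says whether tissue was pooled, so the p-values measure the spread between samples, which may be partly technical.

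Estrogen, progesterone and corticosteroid receptors are transcription factors that wait in the cell with chaperones, bind their hormone, and then switch genes at short palindromic DNA elements. The estrogen-related receptors share their DNA-binding fold but have no known natural hormone, and they depend on coactivators such as PGC-1α. In heart muscle the estrogen-related receptors maintain genes of fatty acid oxidation and oxidative phosphorylation, the glucocorticoid and mineralocorticoid receptors act on growth, contraction and fibrosis, and estrogen receptors are scarce. Pgr is a classical estrogen-induced gene of uterus and breast.

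The arrays carried the ventricle's genes: Myl2, the ventricular regulatory myosin light chain, averaged 14.74 on the deposited log2 scale, close to the highest value in the data, 15.31, where the lowest was 5.07. Irx4 and Hey2, ventricular transcription factors, averaged 7.70 and 7.10, and Myl7, the atrial myosin light chain, averaged 9.18, so some atrial transcript was present too. Estradiol replicate 33 stood apart. Its Spearman correlations with the other arrays were 0.922 to 0.941, where all other pairs had 0.978 to 0.992. Estradiol differences of single probe sets are therefore given without it as well where it moves them by over 1.5 times. Medians and counts of gene lists, unadjusted counts and counts of groups that do not overlap include it. They were not computed without it. In RNA from whole tissue, fewer cells of a type and less RNA per cell cannot be told apart.

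To show promoters of 2 of the receptors beside their values, the 250 bases before the annotated start are printed from RefSeq (build GRCm38.p6), 5′ to 3′ on the gene's strand, with CpG dinucleotides in capitals. Esrra is shown for its probe set high in the value range, and Pgr as the member known best as an estrogen target. The Esrra window is chr19:6921809-6922058 on the minus strand, and the Pgr window is chr9:8899583-8899832 on the plus strand.
Esrra: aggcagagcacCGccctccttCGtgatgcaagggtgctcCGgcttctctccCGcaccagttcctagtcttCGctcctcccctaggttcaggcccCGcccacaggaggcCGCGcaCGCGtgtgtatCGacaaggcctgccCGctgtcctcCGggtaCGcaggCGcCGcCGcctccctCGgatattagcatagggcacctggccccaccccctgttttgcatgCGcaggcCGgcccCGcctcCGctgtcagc
Pgr: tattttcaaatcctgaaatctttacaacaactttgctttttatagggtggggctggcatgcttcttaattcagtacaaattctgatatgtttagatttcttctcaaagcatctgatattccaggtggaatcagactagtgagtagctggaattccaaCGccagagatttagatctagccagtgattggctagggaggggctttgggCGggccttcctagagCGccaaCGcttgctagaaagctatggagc
The Esrra window held 22 CpG dinucleotides and 68.4% G and C, and 85.2% of the 32851 promoter windows of the same length held fewer. The Pgr window held 4 CpG dinucleotides and 43.6% G and C, and 37.8% of windows held fewer. The table gave 12 windows, for Esr1, Esr2, Pgr, Nr3c2, Esrra, Esrrb and Esrrg, which are 7 of the 8 genes. That of Nr3c1 was not analysed here. In the 12 windows CpG counts ran from 3 to 22, where the median of all windows was 6. Each window was searched on both strands for an estrogen response element (GGTCA and TGACC with 3 bases between), an estrogen-related receptor element (TNAAGGTCA) and a glucocorticoid response element (GNACA and TGTNC with 3 bases between), where N is any base and the half-sites of the estrogen element overlap in letters with the estrogen-related one. These letters were in 0 of the 12 windows, and in 0.0639%, 1.14% and 0.387% of all windows, in that order.

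Probe sets differ in how brightly they report a transcript, so a probe set's place in the value range is a description and does not rank amounts of RNA between genes. Position is given as the share of all 45037 probe sets with a lower mean over the 20 arrays. The lower quartile of probe set means was 6.41 and their median was 6.93. Below the lower quartile, and so near the bottom of the range, were 3 of the 22: Esr1 1435663_at (mean 5.96, 4.98% of probe sets lower), Nr3c1 1421866_at (6.13, 11.1% lower) and Pgr 1455772_at (6.32, 20.3% lower). Just above it lay Esr1 1421244_at and Pgr 1421444_at, both at 6.41. For orientation, 45 probe sets of 27 genes of other organs, such as hormones of the pituitary and pancreas, had a median of 6.44 and an upper quartile of 6.94. The highest of these were Prm1 at 8.25, a sperm protamine, Ins2 at 8.02, an insulin, and Krt10 at 8.00, a skin keratin.

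Probe sets of the classical sex steroid receptors had positions from 4.98% to 48.2%, so not all were near the bottom. For Esr1, Esr2 and Pgr, 7 of 7 probe sets were below the median of all probe sets, where 12 of the 22 receptor probe sets were. No detection call was used, and such a position does not show that a transcript was absent. Higher in the range lay probe sets of the corticosteroid and estrogen-related receptors. Past the third highest probe set of the other-organ genes were 7, and past the highest were 5. The 7 were Nr3c1 1460303_at (91.8% of probe sets lower), 1421867_at (88.6%) and 1457635_s_at (81.1%), Nr3c2 1435991_at (76.7%), Esrra 1460652_at (91.1%), Esrrb 1441921_x_at (78.5%) and Esrrg 1455267_at (88.5%). Nr3c2, at a mean of 8.00, and the Esrrb probe set, at 8.12, were the 2 that did not pass the highest. In the Affymetrix naming, _x marks probes that may also bind unrelated transcripts and _s marks probes shared by several transcripts. The values of Esrrb 1441921_x_at and of Nr3c1 1457635_s_at and 1453860_s_at are therefore uncertain.

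**Figure D1:**
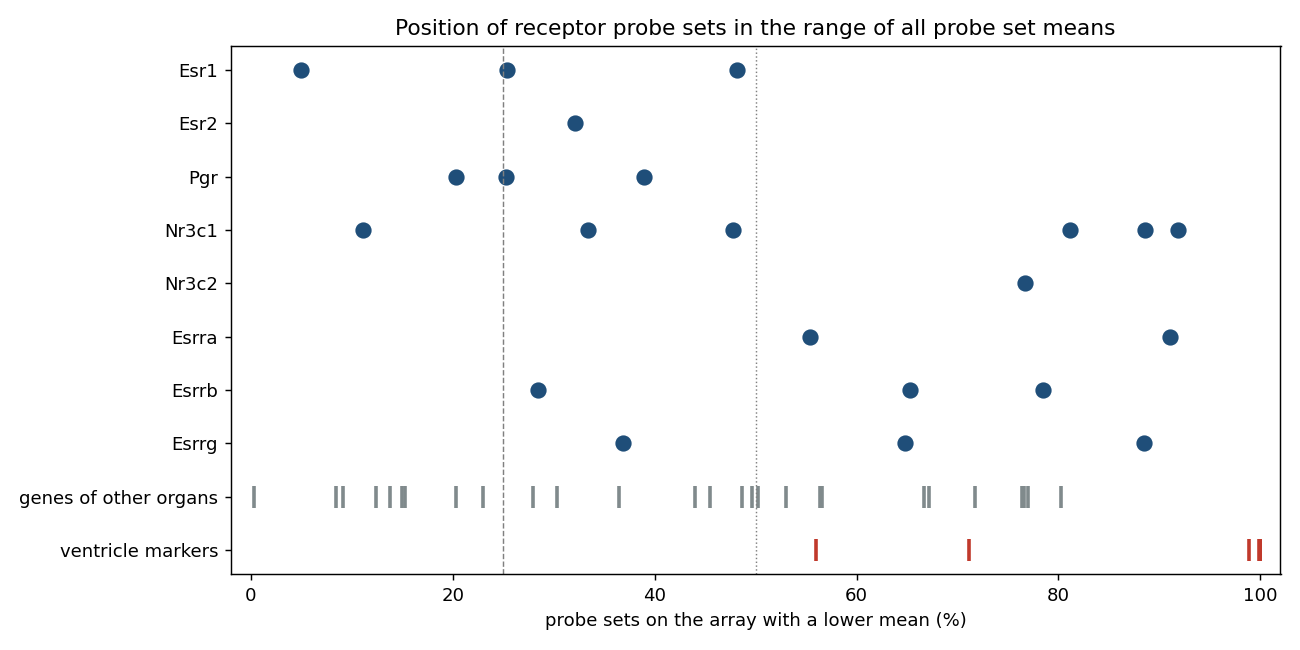
Position of each of the 22 receptor probe sets, as the percent of all probe sets with a lower mean over 20 arrays. Tick marks show genes of other organs and ventricle markers, the broken lines mark 25% and 50%, and the 7 probe sets of Esr1, Esr2 and Pgr all lie left of 50%, with 1435663_at of Esr1 lowest at 4.98%.

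No receptor probe set passed the test in any of the 6 comparisons between groups. With limma, 0 of 22 had an adjusted p under 0.05 for 16α-LE2 against placebo, where 0.0533% of all probe sets did, and 5 of 22 had an unadjusted p under 0.05, where 7.5% of all did. The 5 were Esr1 1460591_at and Nr3c1 1460303_at, 1421867_at, 1457635_s_at and 1453860_s_at. Probe sets of 1 gene are not independent observations, here and in the counts that follow. Against placebo, estradiol gave 0 of 22 (0% of all probe sets) and 4 of 22 unadjusted (8.18% of all), and the beta-titled group gave 0 of 22 (0% of all) and 1 of 22 unadjusted (5.77% of all). Between 16α-LE2 and estradiol the counts were 0 of 22 (0.00888% of all) and 1 of 22 unadjusted (5.61% of all). Between 16α-LE2 and the beta-titled group they were 0 of 22 (0.0355% of all) and 4 of 22 unadjusted (3.14% of all), and between estradiol and the beta-titled group 0 of 22 (0% of all) and 3 of 22 unadjusted (5.37% of all). With so few probe sets called anywhere, 24 at most in 1 comparison, a count of 0 for 22 probe sets is near the background. The smallest limma adjusted p of a receptor was 0.35, for Nr3c1 1457635_s_at in 16α-LE2 against placebo.

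The intervals bound the differences in probe set values, not in receptor protein or activity. Near the bottom of the range, where levels are not separated from background, they do not bound the change in transcript. For 16α-LE2 minus placebo the 22 differences ran from -0.44 to 0.18 log2 units with a median of 0.00, and their 95% confidence intervals lay between -0.71 and 0.36. For estradiol minus placebo the differences ran from -0.29 to 0.18 with a median of -0.01, and the intervals lay between -0.56 and 0.39. For the beta-titled group minus placebo they ran from -0.23 to 0.14 with a median of 0.02, and the intervals lay between -0.51 and 0.38. A change of 1 on this scale is 2-fold, if the log base is 2 as the values imply. No interval of these probe set values reached 1 unit in either direction. For 16α-LE2 minus estradiol, 2 agonists of unknown relative dose, the differences ran from -0.18 to 0.11 and the intervals lay between -0.44 and 0.32. The median half-width of an interval over the whole array was 0.158.

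**Figure D2:**
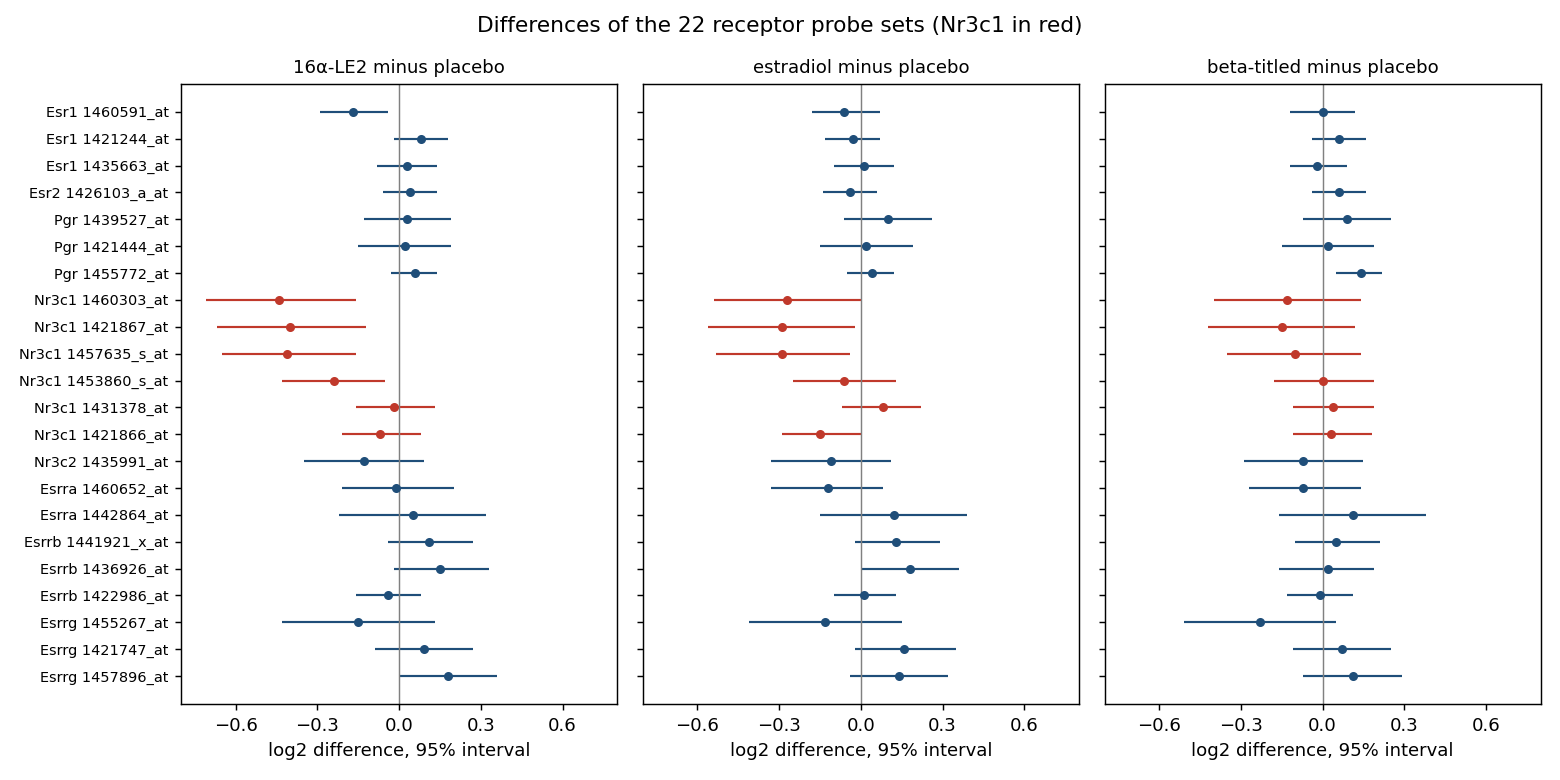
Difference in mean log2 value with its 95% confidence interval for each receptor probe set, for 16α-LE2, estradiol and the beta-titled group, each minus placebo. The lowest point is Nr3c1 1460303_at for 16α-LE2, at -0.44, and the intervals of the 3 bright Nr3c1 probe sets for 16α-LE2 lie wholly below 0.

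The receptors of the estrogens themselves come first. Esr1, the receptor that 16α-LE2 is labelled to stimulate, has its brightest probe set at 1460591_at. Its values were 6.87, 6.84, 6.79, 6.65 and 6.72 in the 16α-LE2 samples, 6.86, 6.87, 6.88, 6.89 and 6.93 in the estradiol samples, 6.98, 6.94, 7.00, 6.81 and 6.97 in the beta-titled samples, and 6.99, 6.88, 7.10, 6.81 and 6.94 in the placebo samples. The 16α-LE2 samples were the lowest set, and overlapped placebo through placebo replicate 34. The difference of 16α-LE2 minus placebo was -0.17 ± 0.06 (SE; interval -0.29 to -0.04, exact permutation p = 0.0317, two-sided) and did not pass with limma (adjusted p = 0.523). The other Esr1 probe sets, at or near the bottom of the range, had differences of 0.08 ± 0.05 and 0.03 ± 0.05, of the opposite sign. The order of the Esr1 1460591_at means was placebo and beta-titled at 6.94, estradiol at 6.89 and 16α-LE2 at 6.77. The differences between neighbours in this order did not pass the test. For 16α-LE2 minus estradiol the difference was -0.11 ± 0.06 for this probe set and 0.11 ± 0.05 for 1421244_at, with limma adjusted p = 0.864 for each.

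Esr2, the second estrogen receptor, has 1 probe set (1426103_a_at, where _a marks probes shared by transcript variants of 1 gene) at a position of 32.1%. It had 6.56, 6.53, 6.51, 6.67 and 6.55 in 16α-LE2 samples, 6.48, 6.41, 6.51, 6.53 and 6.52 in estradiol samples, 6.67, 6.66, 6.52, 6.60 and 6.50 in beta-titled samples, and 6.54, 6.57, 6.43, 6.57 and 6.54 in placebo samples. All groups overlapped, with differences of 0.04 ± 0.05, -0.04 ± 0.05 and 0.06 ± 0.05 from placebo (SE). The level of Esr2 was not used to decide what the beta-titled samples received.

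Pgr is the member for which an estrogen response is best known in other tissues, and the groups overlapped for its brightest probe set. Pgr 1439527_at had 6.60, 6.73, 6.57, 6.70 and 6.65 in 16α-LE2 samples, 6.65, 6.59, 7.13, 6.62 and 6.63 in estradiol samples, 6.77, 6.81, 6.58, 6.66 and 6.74 in beta-titled samples, and 6.63, 6.66, 6.60, 6.50 and 6.71 in placebo samples. The 7.13 is estradiol replicate 33. The estradiol mean was 6.72 ± 0.23 (SD, n = 5) with it and 6.62 ± 0.02 (SD, n = 4) without it, where placebo had 6.62 ± 0.08 (SD, n = 5). The difference of estradiol minus placebo was 0.10 ± 0.08 with that array and 0.00 without it. Pgr 1455772_at, near the bottom of the range, had 6.37, 6.24, 6.34, 6.33 and 6.31 in 16α-LE2 samples, 6.33, 6.29, 6.30, 6.26 and 6.33 in estradiol samples, 6.41, 6.37, 6.42, 6.40 and 6.40 in beta-titled samples, and 6.36, 6.23, 6.31, 6.21 and 6.21 in placebo samples. The beta-titled samples lay above all estradiol and all placebo samples. The beta-titled minus placebo difference was 0.14 ± 0.04 (exact permutation p = 0.00794, the smallest that 5 against 5 samples can give) and did not pass with limma (adjusted p = 0.747).

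Groups that did not overlap were counted for every comparison. For 16α-LE2 against placebo they were 3 of 22 receptor probe sets, all of Nr3c1 and all lower in 16α-LE2, where 2.97% of all probe sets did not overlap. For the beta-titled group against placebo it was 1 of 22 (1.23% of all), and for estradiol against the beta-titled group 1 of 22 (0.564% of all), both the Pgr probe set above. The counts were 0 of 22 for estradiol against placebo (0.941% of all), for 16α-LE2 against estradiol (0.924% of all) and for 16α-LE2 against the beta-titled group (1.21% of all). The 3 of 22 come from 1 gene, so they are not 3 independent observations.

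Nr3c1, which binds corticosterone in mice, had the largest differences among the members in 16α-LE2 and in estradiol against placebo. For the beta-titled group against placebo the largest was Esrrg 1455267_at at -0.23. Nr3c1 1460303_at had 9.39, 9.22, 9.43, 9.32 and 9.22 in the 16α-LE2 samples, 9.66, 9.66, 9.30, 9.39 and 9.39 in the estradiol samples, 9.41, 9.38, 10.06, 9.42 and 9.85 in the beta-titled samples, and 9.85, 9.57, 10.07, 9.74 and 9.52 in the placebo samples. The highest 16α-LE2 value, 9.43, lay below the lowest placebo value, 9.52, while estradiol and the beta-titled group overlapped both. The mean of 9.31 ± 0.10 in 16α-LE2 samples against 9.75 ± 0.22 in placebo samples (SD, n = 5 each) is a difference of -0.44 ± 0.13 (SE; interval -0.71 to -0.16), or 1.35-fold lower. The exact permutation p of 0.00794 is again the smallest possible, and limma's adjusted p over all probe sets was 0.393, so the difference did not pass.

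The other bright Nr3c1 probe sets gave like values. For 1421867_at, 16α-LE2 samples had 8.97, 8.84, 9.00, 8.89 and 8.71, against 9.31, 9.02, 9.68, 9.31 and 9.07 in placebo samples, a difference of -0.40 ± 0.13 (limma adjusted p = 0.492). For 1457635_s_at, 16α-LE2 samples had 8.10, 8.05, 8.23, 8.07 and 8.07, against 8.62, 8.43, 8.71, 8.40 and 8.41 in placebo samples, a difference of -0.41 ± 0.12 (limma adjusted p = 0.35). Neither pair of groups overlapped. The 3 dimmer probe sets, at 47.8%, 33.4% and 11.1%, had differences of -0.24 ± 0.09, -0.02 ± 0.07 and -0.07 ± 0.07. Estradiol minus placebo was -0.27 ± 0.13, -0.29 ± 0.13 and -0.29 ± 0.12 for the bright probe sets, and -0.22, -0.21 and -0.22 without estradiol replicate 33. For 1421867_at it was -0.19 without placebo replicate 33. For 16α-LE2 minus estradiol the difference of 1460303_at was -0.17 ± 0.13 (interval -0.44 to 0.11). In the order of its means, 16α-LE2 at 9.31, estradiol at 9.48, beta-titled at 9.62 and placebo at 9.75, no step between neighbours passed the test.

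Other measures differed between the same groups as Nr3c1. Across the 20 arrays, the SD of all values on an array correlated with Nr3c1 1460303_at (Pearson r = 0.64, permutation p = 0.00248; Spearman rho = 0.82, permutation p = 3e-05; adjusted p = 0.00397 and 8e-05 over 8 relations). Without the 2 arrays farthest from the median SD, r was 0.75, and with group means removed it was 0.71. The SD was lower in 16α-LE2 samples, 1.37 to 1.41 with a median of 1.38, than in placebo samples, 1.41 to 1.48 with a median of 1.44. After quantile normalization, which gives all arrays the same spread, the 3 differences of 16α-LE2 minus placebo were -0.33, -0.30 and -0.34. The mean level of 6 fibroblast markers was 9.93 to 10.11 in 16α-LE2 samples and 9.97 to 10.54 in placebo samples, and 6 of 6 had a lower mean in 16α-LE2 samples, with a median difference of -0.24 and 0 of their 11 probe sets called with limma (3 of 6 genes had an unadjusted p under 0.05, where 7.99% of all genes did). Of 6 endothelial markers, 5 were lower in 16α-LE2 samples, with a median difference of -0.28 and 5 of 6 at an unadjusted p under 0.05, 1 of them higher. Their mean level was 8.90 to 9.35 in 16α-LE2 samples and 9.10 to 9.39 in placebo samples. Of 3 red blood cell markers 3 were higher, with a median difference of 0.57, and their mean level was 7.98 to 8.88 in 16α-LE2 samples and 7.57 to 8.01 in placebo samples. The difference was 0.95 ± 0.27 for Alas2 (limma adjusted p = 0.321) and only 0.06 ± 0.09 for Hba-a1 (limma adjusted p = 0.897). A probe set of Slc4a1, the red cell anion exchanger, rose by 0.80 ± 0.14 (limma adjusted p = 0.031), while its other probe sets had 0.57 and 0.01 and did not pass. No other list of cell type markers had a median further from 0 than 0.11. The part of these measures in the Nr3c1 difference was not tested. Among the other relations of array SD, r was 0.68 for Esrrg 1455267_at (rho = 0.63), 0.53 for Nr3c2 (rho = 0.54), -0.48 for Esrrb 1441921_x_at (rho = -0.64) and 0.32 for Esrra 1460652_at (rho = 0.16), with adjusted permutation p = 0.00214, 0.024, 0.0362 and 0.166 for r.

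**Figure D3:**
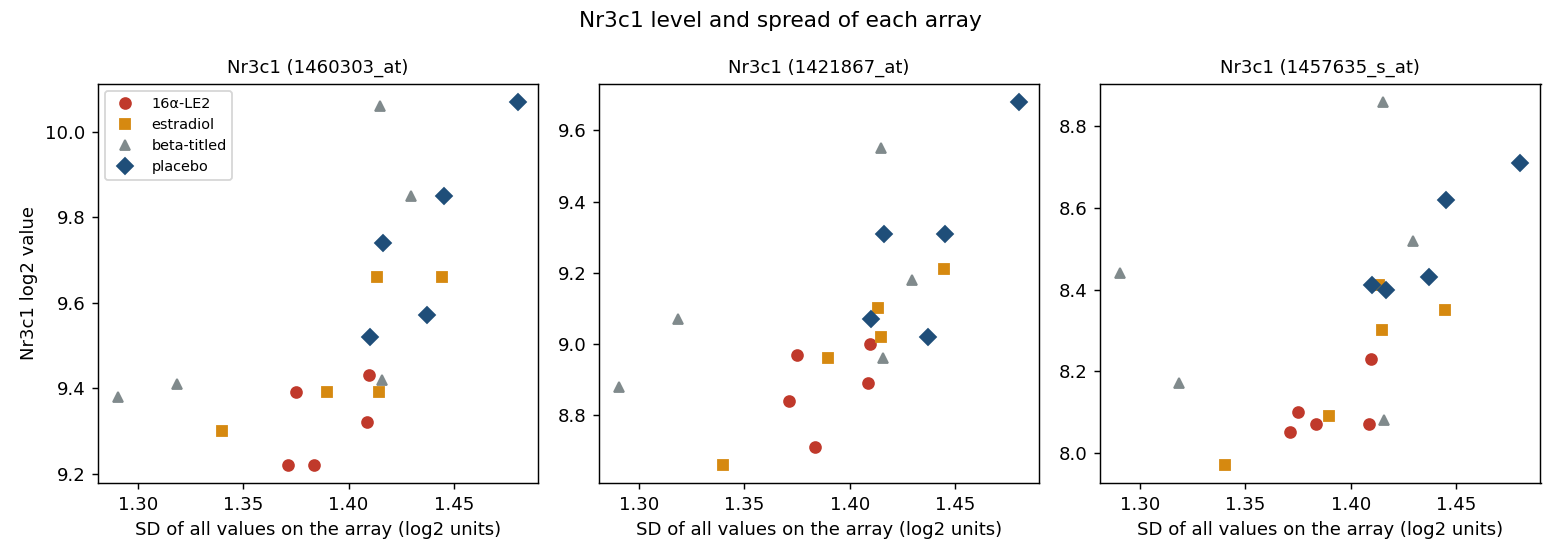
Log2 values of the 3 bright Nr3c1 probe sets, 1 panel each, against the SD of all values on the array, 1 point per array, coloured by group. Arrays with a wider spread had higher values of 1460303_at (r = 0.64), and the 16α-LE2 arrays sit at SDs of 1.37 to 1.41.

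The 3 bright Nr3c1 probe sets ranked the arrays alike, with r of 0.94, 0.91 and 0.86 between pairs (rho of 0.96, 0.85 and 0.82, permutation p of at most 4e-05, adjusted p = 8e-05 for each rho).

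Nr3c2, which binds aldosterone and corticosterone, had 7.95, 8.08, 7.92, 7.94 and 7.87 in 16α-LE2 samples, 7.97, 8.11, 7.61, 8.21 and 7.97 in estradiol samples, 7.98, 7.96, 7.98, 7.96 and 8.17 in beta-titled samples, and 8.30, 8.21, 8.23, 7.74 and 7.93 in placebo samples. The groups overlapped, with placebo replicates 31, 32 and 33 the highest, and 16α-LE2 minus placebo was -0.13 ± 0.11 (interval -0.35 to 0.09), which became -0.07 when placebo replicate 31 was left out and -0.21 when placebo replicate 34 was.

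The estrogen-related receptors, orphan regulators of oxidative metabolism, were measured by 8 probe sets. Esrra 1460652_at had 9.61, 9.57, 9.41, 9.41 and 9.35 in 16α-LE2 samples, 9.27, 9.47, 9.14, 9.29 and 9.62 in estradiol samples, 9.33, 9.28, 9.45, 9.48 and 9.52 in beta-titled samples, and 9.32, 9.39, 9.50, 9.54 and 9.65 in placebo samples. The difference was -0.01 ± 0.10 for 16α-LE2 (interval -0.21 to 0.20) and -0.12 ± 0.10 for estradiol (interval -0.33 to 0.08). The estradiol difference was -0.07 without estradiol replicate 33. Esrra 1442864_at, lower in the range, differed by 0.05 ± 0.13 for 16α-LE2 and 0.12 ± 0.13 for estradiol. Leaving out 1 array gave -0.09 to 0.15 and 0.05 to 0.22. Esrrb 1441921_x_at had 8.22, 8.19, 8.07, 8.15 and 8.18 in 16α-LE2 samples, 8.23, 8.03, 8.24, 8.26 and 8.15 in estradiol samples, and 8.07, 8.09, 8.10, 7.88 and 8.11 in placebo samples. Both agonist groups overlapped placebo, with differences of 0.11 ± 0.08 (0.07 without placebo replicate 34) and 0.13 ± 0.08. Esrrb 1436926_at differed by 0.15 ± 0.09 and 0.18 ± 0.09 in the same comparisons (limma adjusted p = 0.717 and 0.579), and the estradiol difference was 0.08 without estradiol replicate 34. The dimmest, Esrrb 1422986_at, differed by -0.04 ± 0.06 and 0.01 ± 0.06 (-0.03 without estradiol replicate 33). Esrrg 1455267_at had 8.83, 9.13, 9.13, 9.05 and 8.97 in 16α-LE2 samples, 9.10, 9.09, 8.91, 9.08 and 9.01 in estradiol samples, 8.81, 8.74, 9.27, 8.76 and 9.14 in beta-titled samples, and 9.41, 9.09, 9.60, 9.09 and 8.68 in placebo samples. Its placebo values spanned more than any other group's, so all groups overlapped, and 16α-LE2 minus placebo was -0.15 ± 0.14 (interval -0.43 to 0.13). Leaving out placebo replicate 33 gave -0.04, and leaving out placebo replicate 36 gave -0.27. The other Esrrg probe sets had differences of 0.09 ± 0.09 and 0.18 ± 0.09 (0.12 without placebo replicate 33). Of the 66 receptor differences from placebo, most of them small, 51 moved by over 1.5 times when 1 array was left out.

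**Figure D4:**
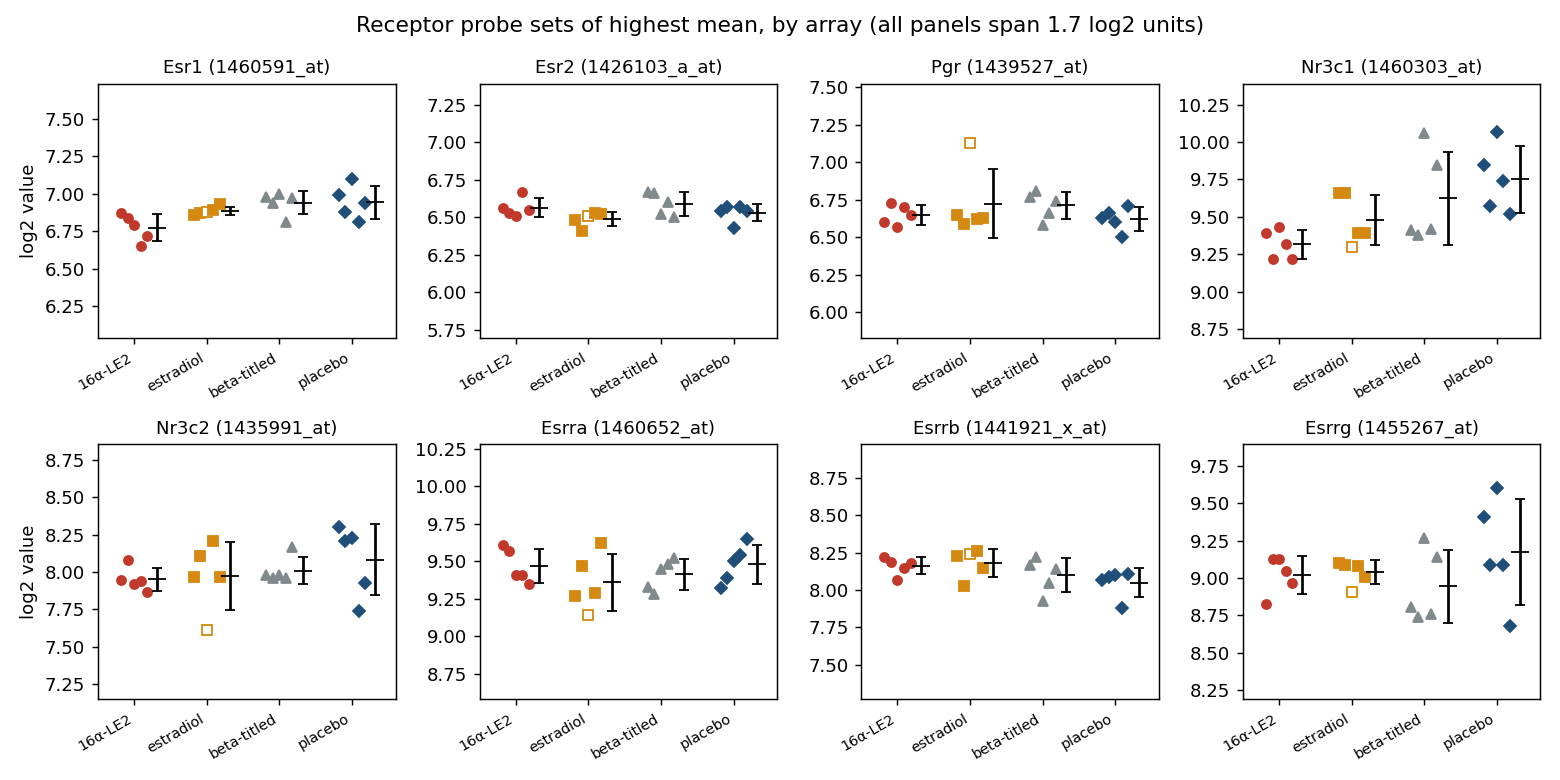
Log2 values of each receptor's brightest probe set on each array by group, with bars at the mean ± SD of 5 arrays, and an open square for estradiol replicate 33. For Nr3c1 1460303_at all 5 16α-LE2 points lie below all 5 placebo points, and in the other 7 panels the 16α-LE2 and placebo points overlap.

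Genes whose level ran most like a receptor's over the 20 arrays were found among 12081 other genes, by Spearman rho between the brightest probe sets, as a description. For Nr3c1 they were Usp45, Adam17 and Adam10 (rho of 0.96, 0.93 and 0.92). For Nr3c2 they were Parva, Ids and Kcnd2 (0.83, 0.78 and 0.78). For Esrra they were Sap30l, Dohh and Yrdc (0.87, 0.86 and 0.86), for Esrrb Bpifa5, 4930572G02Rik and Zdhhc18 (0.85, 0.82 and 0.80), and for Esrrg Zfp654, Ccng1 and Selenot (0.92, 0.91 and 0.91). The points share the arrays and hence the array spread given above.

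The partners, enzymes and targets of these receptors were taken from 9 lists, with 101 of 116 genes matched through 237 probe sets. With limma, 0 of them passed in any of the 6 comparisons. Of all genes, 7.99% had an unadjusted p under 0.05 for 16α-LE2 against placebo, 8.04% for estradiol and 5.58% for the beta-titled group. The median difference of all genes from placebo was 0.01 in each. Medians and counts of a list use each gene's brightest probe set, while a named gene is given at its probe set of smallest p, which was chosen for that p.

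The coactivator list of the estrogen-related receptors holds Ppargc1a, which encodes PGC-1α, the coactivator that drives mitochondrial genes through them. Ppargc1a 1434099_at had 8.73, 9.01, 8.99, 9.11 and 9.02 in 16α-LE2 samples, 8.94, 9.06, 8.57, 9.12 and 8.78 in estradiol samples, 8.62, 9.13, 9.01, 8.92 and 9.37 in beta-titled samples, and 9.36, 9.32, 9.51, 9.52 and 9.51 in placebo samples. All 16α-LE2 and all estradiol samples lay below all placebo samples, and the beta-titled group overlapped placebo through replicate 36. The difference from placebo was -0.47 ± 0.12 for 16α-LE2 and -0.55 ± 0.12 for estradiol (SE), with limma adjusted p = 0.235 and 0.548, and -0.44 ± 0.12 for the beta-titled group (limma adjusted p = 0.747). Among the gene's other probe sets, 1434100_x_at had -0.48 and -0.53, and the 3 others had -0.12, -0.09 and -0.12 for 16α-LE2 and -0.59, -0.37 and -0.41 for estradiol, so probe sets disagreed in size for 16α-LE2. The 21 matched targets of these receptors, genes of the respiratory chain and fatty acid oxidation, had a median difference of -0.07 for 16α-LE2 (17 of 21 lower), -0.03 for estradiol (14 of 21 lower) and -0.17 for the beta-titled group (21 of 21 lower). An unadjusted limma p under 0.05 was found for 0 of 21 with 16α-LE2 (7.99% of all genes) and 1 of 21 with estradiol (8.04% of all). For the beta-titled group it was 8 of 21 (5.58% of all). In the beta-titled group 7 of 8 ventricle markers were also lower, with a median of -0.13, and 6 of 6 macrophage markers, with a median of -0.16. Beta-titled replicates 31 and 32 had the narrowest spread of all arrays, SDs of 1.32 and 1.29. The part of these measures was not tested. The gene of smallest p was Slc25a4, the ADP/ATP carrier of heart mitochondria, at -0.23 ± 0.11 for 16α-LE2, -0.41 ± 0.11 for estradiol and -0.29 ± 0.11 for the beta-titled group (limma adjusted p = 0.664, 0.579 and 0.747).

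Among 18 estrogen receptor targets, such as Myc and Ptgds, the median difference was 0.05 for estradiol, with 12 of 18 higher, and 0.03 for the beta-titled group, with 11 of 18 higher. For 16α-LE2, 9 of 18 were higher and 9 lower. Myc, a growth-promoting transcription factor, had 7.10, 6.91, 7.11, 7.11 and 7.62 in 16α-LE2 samples against 6.79, 6.87, 6.74, 6.78 and 6.78 in placebo samples. The groups did not overlap, at 0.38 ± 0.09 (limma adjusted p = 0.182). For Myc the difference was 0.04 ± 0.09 with estradiol (0.09 without estradiol replicate 33) and 0.04 ± 0.09 in the beta-titled group. Ptgds, a prostaglandin synthase, had 13.51, 13.21, 13.23, 13.36 and 13.48 in estradiol samples against 13.13, 13.15, 12.51, 12.96 and 12.58 in placebo samples. Here too the groups did not overlap, at 0.49 ± 0.13 (limma adjusted p = 0.579). The 16α-LE2 samples had 13.27, 13.34, 13.45, 13.31 and 13.35, also all above placebo, at 0.48 ± 0.13 (limma adjusted p = 0.267), and the beta-titled group differed by -0.20 ± 0.13.

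Of the 14 glucocorticoid receptor targets, 8 had a higher mean in 16α-LE2 than in placebo samples, with a median difference of 0.08. With estradiol 13 of 14 were lower with a median of -0.24, and in the beta-titled group 12 of 14 were lower with a median of -0.17. The 3 comparisons share the placebo samples. Mt2, a metallothionein, had 11.61, 11.98, 12.11, 12.62 and 12.42 in 16α-LE2 samples against 11.52, 11.78, 11.91, 11.44 and 11.57 in placebo samples, which overlapped, at 0.51 ± 0.17 (limma adjusted p = 0.5). The Mt2 difference had the opposite sign for estradiol, -0.23 ± 0.17 (-0.13 without estradiol replicate 33), and for the beta-titled group, -0.40 ± 0.17. Cdkn1a, an inhibitor of cell cycle kinases, had -0.61 ± 0.19 with estradiol, -0.49 ± 0.19 with 16α-LE2 and -0.85 ± 0.19 in the beta-titled group (limma adjusted p = 0.579, 0.567 and 0.747). The 6 mineralocorticoid receptor targets had medians of 0.07 with 16α-LE2, -0.05 with estradiol and -0.07 in the beta-titled group. Lcn2, a lipocalin, differed by 0.42 ± 0.16 with 16α-LE2, and Nedd4l, a ubiquitin ligase of the epithelial sodium channel, by 0.30 ± 0.09 with estradiol (limma adjusted p = 0.556 and 0.579). Lcn2 differed by 0.16 ± 0.16 with estradiol (0.26 without estradiol replicate 33 and 0.01 without estradiol replicate 35). In the beta-titled group it differed by -0.20 ± 0.16. Nedd4l differed by 0.22 ± 0.09 with 16α-LE2 and by 0.12 ± 0.09 in the beta-titled group.

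The partners and enzymes of the receptors had differences of like size. Chaperones (9 genes) had median differences of -0.14 with 16α-LE2, where 7 of 9 were lower, -0.19 with estradiol, where 9 of 9 were, and -0.18 in the beta-titled group, where 9 of 9 were. Hsp90aa1, the stress-inducible HSP90 that holds steroid receptors ready for hormone, had 9.43, 9.57, 9.21, 8.99 and 9.04 in estradiol samples against 9.75, 9.92, 10.20, 9.99 and 9.76 in placebo samples. No sample overlapped, and the difference was -0.67 ± 0.15 (limma adjusted p = 0.579). With 16α-LE2 it was -0.34 ± 0.15, and the beta-titled samples gave -0.52 ± 0.15. Dnajb1, an HSP40 cochaperone, had -0.48 ± 0.19 with 16α-LE2, -0.59 ± 0.19 with estradiol and -0.28 ± 0.19 in the beta-titled group (limma adjusted p = 0.586, 0.579 and 0.748). The beta-titled difference of Dnajb1 was -0.13 without placebo replicate 36. The 14 coregulators had medians of -0.03 with 16α-LE2, -0.12 with estradiol and -0.05 in the beta-titled group. Med1, a Mediator subunit, differed by 0.14 ± 0.05 for 16α-LE2. Its mean of 6.38 lies below the lower quartile, where levels are not separated from background. Crebbp, an acetyltransferase, differed by -0.21 ± 0.10 for estradiol (-0.11 without estradiol replicate 33). The 12 steroid enzymes had medians of 0.08, -0.04 and -0.11 for 16α-LE2, estradiol and the beta-titled group. Hsd17b1, which makes estradiol from estrone, differed by 0.12 ± 0.06 for 16α-LE2, at a low mean of 6.55. Hsd17b11, a dehydrogenase of lipid droplets, differed by -0.47 ± 0.15 for estradiol and -0.41 ± 0.15 for the beta-titled group. The 5 other sex steroid receptors had medians of -0.04, -0.10 and 0.02, with Pgrmc1, a heme-binding membrane protein, at -0.35 ± 0.16, -0.38 ± 0.16 and -0.30 ± 0.16 (limma adjusted p = 0.663, 0.579 and 0.747).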

How the data were processed

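RNA of 20 ventricle samples was hybridised to Affymetrix mouse arrays after labelling of 100 ng total RNA, per the labels' protocols. The authors' deposited values are log2 expression, 1 per probe set and array. Their base, summarization and normalization are not stated in the labels or headers, so log2 was inferred from the range of 5.07 to 15.31. No detection calls or background signals were used.

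Of 45101 probe sets, 64 controls were left out. Of the 45037 others, 34945 had exactly 1 symbol in the platform annotation, 932 had several and 9160 had none. All 45037 were fitted with limma 3.58.1 in R 4.3.3 (group means of 4 groups, eBayes with an intensity trend), with Benjamini-Hochberg adjustment over all of them and a threshold of 0.05. Single values were tested by exact permutation over samples, and correlations with 100000 permutations. The fit was tested on simulated data. Summaries were made in Python 3.11.15 with pandas 2.3.3 and scipy 1.17.1, and figures with matplotlib 3.10.9.

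Named genes were all receptor probe sets, from each list the genes past the threshold or else the gene of smallest p in 16α-LE2 and in estradiol against placebo, and the 3 genes most like each receptor with a probe set above the median. The members and lists were chosen with earlier results of these data known. Alternatives covered a filter on low values, 1 probe set per gene, quantile normalization, array weights, only the groups compared, a block on the replicate number, placebo pooled with the beta-titled arrays, and leaving out each array. The labels do not say that the replicate numbers in the titles pair the samples, so the main fit used no pairing.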

Additional observations from a re-analysis of the deposited data

Results flagged for a closer look

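In each group of 5 arrays, the receptor values were checked for 1 array far from the other 4. Of 88 such checks 11 stood out, where chance gives about 1 in 20, and 4 of the 11 were on estradiol replicate 33, the array with the lowest correlations to the rest. On that array Pgr 1439527_at had 7.13 (the other 4 had 6.59 to 6.65), Pgr 1421444_at had 6.88 (6.23 to 6.37), Esrrb 1422986_at had 6.67 (6.43 to 6.48) and Esrrg 1421747_at had 7.96 (7.33 to 7.43). The other 7 fell on other arrays. Among 16α-LE2 arrays, replicate 32 had 8.23 for Nr3c1 1457635_s_at (8.05 to 8.10 in the others) and 6.68 for Nr3c1 1431378_at (6.47 to 6.52), and replicate 29 had 7.62 for Esrra 1442864_at (6.86 to 6.98). Among beta-titled arrays, replicate 35 had 6.81 for Esr1 1460591_at (6.94 to 7.00) and replicate 36 had 8.17 for Nr3c2 1435991_at (7.96 to 7.98). Among placebo arrays, replicate 33 had 6.43 for Esr2 1426103_a_at (6.54 to 6.57) and replicate 34 had 7.88 for Esrrb 1441921_x_at (8.07 to 8.11).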

How the results depend on the processing

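No receptor probe set passed in any of the 6 comparisons under any alternative run, 26 or 27 for each. With the replicate block, 0 receptor probe sets passed in each comparison, as without it, and same-numbered samples of different groups did not as a rule deviate together (17 pairs, r of -0.365 to 0.537, median 0.038; 3 of 20 arrays correlated best with their own number). These correlations cannot exclude that samples were matched by number. The smallest limma adjusted p among all alternatives was 0.0557, for Nr3c1 1457635_s_at in 16α-LE2 against placebo with array weights. The sign turned under at least 1 alternative for 49 of the 132 differences, and for 0 of the 18 with an unadjusted p under 0.05. Differences that moved by more than the spread were those of Pgr 1455772_at, -0.01 for 16α-LE2 and -0.03 for estradiol against the pooled placebo and beta-titled arrays, and 0.09 for the beta-titled group minus placebo after quantile normalization. For Nr3c1 1460303_at, 1421867_at and 1457635_s_at, 16α-LE2 minus placebo was -0.35, -0.30 and -0.36 without placebo replicate 33, the largest shift from leaving out 1 array. The number of probe sets called over the whole array was less stable. For 16α-LE2 against placebo it was 24, with 319 under array weights, 36 above the median filter, 13 after quantile normalization, 8 with only the groups compared, 38 with the replicate block, 68 with pooled controls and 7 to 64 leaving out 1 array (64 without estradiol replicate 33). For 16α-LE2 against estradiol it was 4, with 14 under array weights, 0 with the median filter or only the groups compared, and 0 to 10 leaving out 1 array. For 16α-LE2 against the beta-titled group it was 16, with 97 under array weights, 34 after quantile normalization, 72 with only the groups compared, 9 with the replicate block and 6 to 41 leaving out 1 array. For estradiol against placebo it was 0, with 3 under the replicate block and 0 or 1 leaving out 1 array. The causes of these shifts were not tested. The arrays' number limits the precision, and without detection calls the levels of probe sets near the bottom of the range are not separated from background.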

Other observations

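Cyp1a1, a cytochrome P450 that hydroxylates estradiol and is a target of the aryl hydrocarbon receptor, was chosen after its values were seen. Its only probe set had 6.64, 6.98, 6.75, 6.93 and 6.96 in 16α-LE2 samples, 6.33, 6.23, 5.96, 6.37 and 6.53 in estradiol samples, 6.20, 6.35, 6.15, 6.28 and 6.20 in beta-titled samples, and 6.07, 6.12, 6.11, 6.13 and 6.23 in placebo samples. Every 16α-LE2 sample lay above every other sample. The difference was 0.72 ± 0.08 from placebo (SE; limma adjusted p = 6.03e-05), 0.57 ± 0.08 from estradiol (limma adjusted p = 0.00839) and 0.62 ± 0.08 from the beta-titled group (limma adjusted p = 0.000554). Over all alternatives that tested it, these passed in 26 of 26, 23 of 25 and 25 of 25, with a largest adjusted p of 0.0024, 0.235 and 0.0171. The 0.235 came from fitting only the 2 groups compared. The mean of 6.38 lies below the lower quartile of all probe set means, so the filter at the median left it untested, and no fold is given because levels there are not separated from background. Of other genes linked to the aryl hydrocarbon receptor, Cyp1a2 differed by 0.13 and its repressor Ahrr by 0.27 in 16α-LE2 minus placebo (limma adjusted p = 0.636 and 0.457), and Nqo1 by -0.04. The 2 probe sets of Ahr, the receptor itself, differed by -0.11 and 0.02, and the 3 of Tiparp by -0.04, -0.14 and -0.21. For Tiparp, placebo replicate 33 stood far above the rest of its group. It had 9.59, 9.25 and 8.32, where the next highest placebo values were 8.62, 8.29 and 7.57. Tiparp differences without that array are not given, so their sign is uncertain.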
